A study of Mus musculus with 15 samples.

Results

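The genes described are 9 that mark macrophages residing in tissues, the Kupffer cells of the liver among them: Cd163, Mrc1, Lyve1, Folr2, Vsig4, Cd5l, Marco, Timd4 and Clec4f. They were taken by name, and the set was chosen by a measured value, the strong fall of Cd163 in the heart allografts of these same data, so their values in the heart comparison are given as a description, with no test. The arrays carried 10 probes for these 9 genes, of 41174 probes in all and 18217 genes that could be named. Lyve1 had a pair of probes and each of the other genes had 1; a gene was read from its brightest probe.

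Expression was measured on 15 one-colour microarrays in 5 groups of 3 arrays. Heart POD5 was cardiac tissue at post-operative day 5 of an allograft from C57BL/10 (B10) donors placed in the abdomen of CBA recipients, joined to the vessels but apart from the recipient's own heart. Liver POD5 and liver POD8 were hepatic grafts from B10.BR (BR) donors that replaced the liver of B10.D2 (D2) recipients, taken at day 5 and at day 8. All mice were male, and their ages and any drug treatment are not given in the sources used here. Heart control and liver control are labelled normal tissue, while the study elsewhere speaks of isografts, so operated and unoperated controls cannot be told apart here, and the strain of the control mice is not stated. A graft holds both donor cells and cells that entered from the recipient, and these arrays measured their RNA together.

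Resident macrophages settle in a tissue early in life or are replaced slowly from blood monocytes, and they clear dying cells, debris and blood-borne particles. Their scavenger and lectin receptors serve that task: CD163 takes up haemoglobin bound to haptoglobin, the mannose receptor Mrc1 takes up glycoproteins, Marco binds bacteria and particles, and Timd4 binds the phosphatidylserine that dying cells expose. Kupffer cells, the macrophages of the liver sinusoids, are recognised in the mouse by Clec4f, together with Vsig4, Timd4, Marco and Cd5l. Lyve1, Folr2, Cd163 and Mrc1 are among the genes that mark resident macrophages of the heart and many other organs. Apart from Clec4f, these genes are not exclusive to Kupffer cells or to the resident macrophages of other organs. Lyve1 and Mrc1 are also used by liver sinusoidal endothelium, and Lyve1 by lymphatic vessels. In such bulk tissue, fewer cells of a type and less RNA per cell cannot be told apart.

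The sequences before the start of 4 genes that lay lower in the heart allografts, and of Timd4, which lay higher, are printed because these genes moved together or against each other. RefSeq held such a window for 8 of the 9 genes, with 2 windows for Folr2, in build GRCm38.p6. Each line gives the 250 bases before the start, 5′ to 3′ on the strand of the gene, with capitals marking GAGGAA on either strand, the core recognised by PU.1, the factor of the macrophage lineage.
Cd163, chr6:124304401-124304650, plus strand: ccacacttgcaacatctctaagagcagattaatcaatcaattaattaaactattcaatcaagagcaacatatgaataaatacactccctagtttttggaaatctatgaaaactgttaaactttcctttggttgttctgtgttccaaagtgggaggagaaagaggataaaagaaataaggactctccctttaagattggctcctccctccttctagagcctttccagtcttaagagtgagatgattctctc
Mrc1, chr2:14229164-14229413, plus strand: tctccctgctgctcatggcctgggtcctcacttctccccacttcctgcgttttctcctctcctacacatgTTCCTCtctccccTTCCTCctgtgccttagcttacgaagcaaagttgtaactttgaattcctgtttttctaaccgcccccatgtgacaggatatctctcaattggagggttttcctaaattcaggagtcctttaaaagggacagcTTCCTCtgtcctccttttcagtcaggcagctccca
Vsig4, chrX:96293439-96293688, minus strand: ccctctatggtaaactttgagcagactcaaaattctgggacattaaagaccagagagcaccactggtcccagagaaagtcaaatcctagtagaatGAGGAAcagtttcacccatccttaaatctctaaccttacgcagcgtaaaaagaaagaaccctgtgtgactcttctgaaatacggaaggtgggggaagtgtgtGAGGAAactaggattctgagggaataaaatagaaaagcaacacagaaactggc
Cd5l, chr3:87357631-87357880, plus strand: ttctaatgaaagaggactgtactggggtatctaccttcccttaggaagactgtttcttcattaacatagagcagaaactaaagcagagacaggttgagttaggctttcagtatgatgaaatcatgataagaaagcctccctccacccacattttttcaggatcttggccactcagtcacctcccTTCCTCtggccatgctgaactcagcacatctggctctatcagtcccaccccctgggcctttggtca
Timd4, chr11:46810549-46810798, plus strand: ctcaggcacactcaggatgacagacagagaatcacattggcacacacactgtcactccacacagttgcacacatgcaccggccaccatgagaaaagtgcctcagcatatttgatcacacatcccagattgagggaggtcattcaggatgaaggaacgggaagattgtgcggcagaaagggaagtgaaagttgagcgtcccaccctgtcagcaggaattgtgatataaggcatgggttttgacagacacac
GAGGAA was found in the windows of Mrc1, Vsig4, Cd5l and Marco, that is 4 of the 8 genes, against 23.3% of 32851 windows of the same length in all. The windows of Cd163 and Timd4 held none. The interferon-stimulated response element, a pair of GAAA separated by any 2 bases and searched on both strands, was in 0 of the 9 windows, against 2.98% of all windows. These matches describe letters in a window and were not tested for binding.

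Signals were compared as log2 values after quantile normalization over all 15 arrays, so a difference of 1 is a 2-fold change, and a level is set only against the level of the same gene in other groups. The arrays differed in brightness. The 75th percentile of the deposited signal was 319 to 1154 on the 12 arrays outside the liver controls and 87.7, 157 and 216 on liver control arrays 1, 2 and 3. Liver control array 1 held the lowest of the 3 control values for 9 of 9 genes and had the lowest mean correlation with its group of all arrays, 0.961, so the liver results are given with and without it. Among the heart allografts, array 2 was the dimmest, with a 75th percentile of 363 against 651 and 652, and held the highest of the 3 values for 8 of 9 genes. The tissues matched their labels: 8 of 8 cardiomyocyte genes were called higher and 6 of 6 hepatocyte genes lower in heart controls than in liver controls by limma. Where labels give no separate animals, p-values measure only the spread between these arrays.

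The control hearts and the control livers were compared first. They were hybridised on different slides and scanned on different days, and the strains of these mice are not stated. Organ, slide, scan day and any difference in strain therefore cannot be told apart in these values. Heart controls held more Mrc1 and Lyve1 than liver controls, 4.22-fold and 4.55-fold, whereas Clec4f, Cd5l, Marco and Timd4 were higher in the liver. By limma with Benjamini-Hochberg adjustment these 6 of the 9 genes were called, 2 higher and 4 lower in the heart, in a comparison in which 48.2% of all probes were called, 25.5% higher and 22.7% lower. Arrays of the organs did not overlap for 7 of the 9 genes, 3 higher and 4 lower in the heart, against 66.4% of all probes, 30.7% higher and 35.7% lower. Clec4f, the lectin that defines Kupffer cells in the mouse, gave a log2 level of 12.92 ± 0.60 (SD, n = 3) in liver controls and 2.61 ± 0.58 (SD, n = 3) in heart controls, and in the heart its probe was well above background on 1 of 3 control arrays and on 0 of 3 allograft arrays. The difference was -10.31 ± 0.43 (SE; limma, adjusted p = 4.22e-05) and came to -6.69 with normexp background correction (limma, adjusted p = 1.69e-05), so no fold is given for it.

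The other genes of the liver side followed with smaller differences. Cd5l, a protein secreted by macrophages that binds lipids and serum IgM, differed by -4.80 ± 0.71 (SE; limma, adjusted p = 0.00349). Marco differed by -4.08 ± 0.90 (SE; limma, adjusted p = 0.0143) and Timd4 by -2.69 ± 0.53 (SE; limma, adjusted p = 0.00986), and for each of these genes the 3 heart control arrays lay below the 3 liver control arrays. On the heart side Mrc1 differed by 2.08 ± 0.39 (SE; limma, adjusted p = 0.0081) and Lyve1 by 2.19 ± 0.50 (SE; limma, adjusted p = 0.0167). Without liver control array 1 these were smaller, 1.64 for Mrc1 and 1.70 for Lyve1. On the liver side they were larger, -10.66 for Clec4f, -5.32 for Cd5l, -4.38 for Marco and -3.20 for Timd4. Each of these genes stayed called by limma in that setting. The call for Lyve1 was lost without heart control array 1 or 3 (limma, adjusted p = 0.0552 and 0.0585) and with slide as a random block (adjusted p = 0.0535), and the dimmer probe of Lyve1 differed by 1.55 with an adjusted p of 0.0957 by limma.

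Cd163, Folr2 and Vsig4 were not called between the control organs. Cd163 gave 10.09, 10.10 and 10.31 in the heart controls and 8.84, 9.36 and 9.83 in the liver controls, a difference of 0.82 ± 0.27 (SE; limma, adjusted p = 0.0534), and its heart arrays all lay above its liver arrays. That gene was close to the threshold: it was called in 6 alternative settings, with adjusted p by limma from 0.0145 without liver control array 3 to 0.0492 with 75th percentile scaling, while without liver control array 1 the difference was 0.57 (limma, adjusted p = 0.0613). Folr2, a folate receptor carried by resident macrophages, differed by 0.35 with a 95% interval of -1.20 to 1.90. Vsig4, the complement receptor CRIg that captures opsonised bacteria from blood, differed by -1.29 with a 95% interval of -3.44 to 0.86. Without liver control array 1 the difference of Vsig4 was -2.15 and was called (limma, adjusted p = 0.0265), which made 7 of 9 genes called against 52.3% of all probes, and that of Folr2 was -0.34 (limma, adjusted p = 0.175).

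**Figure D1:**
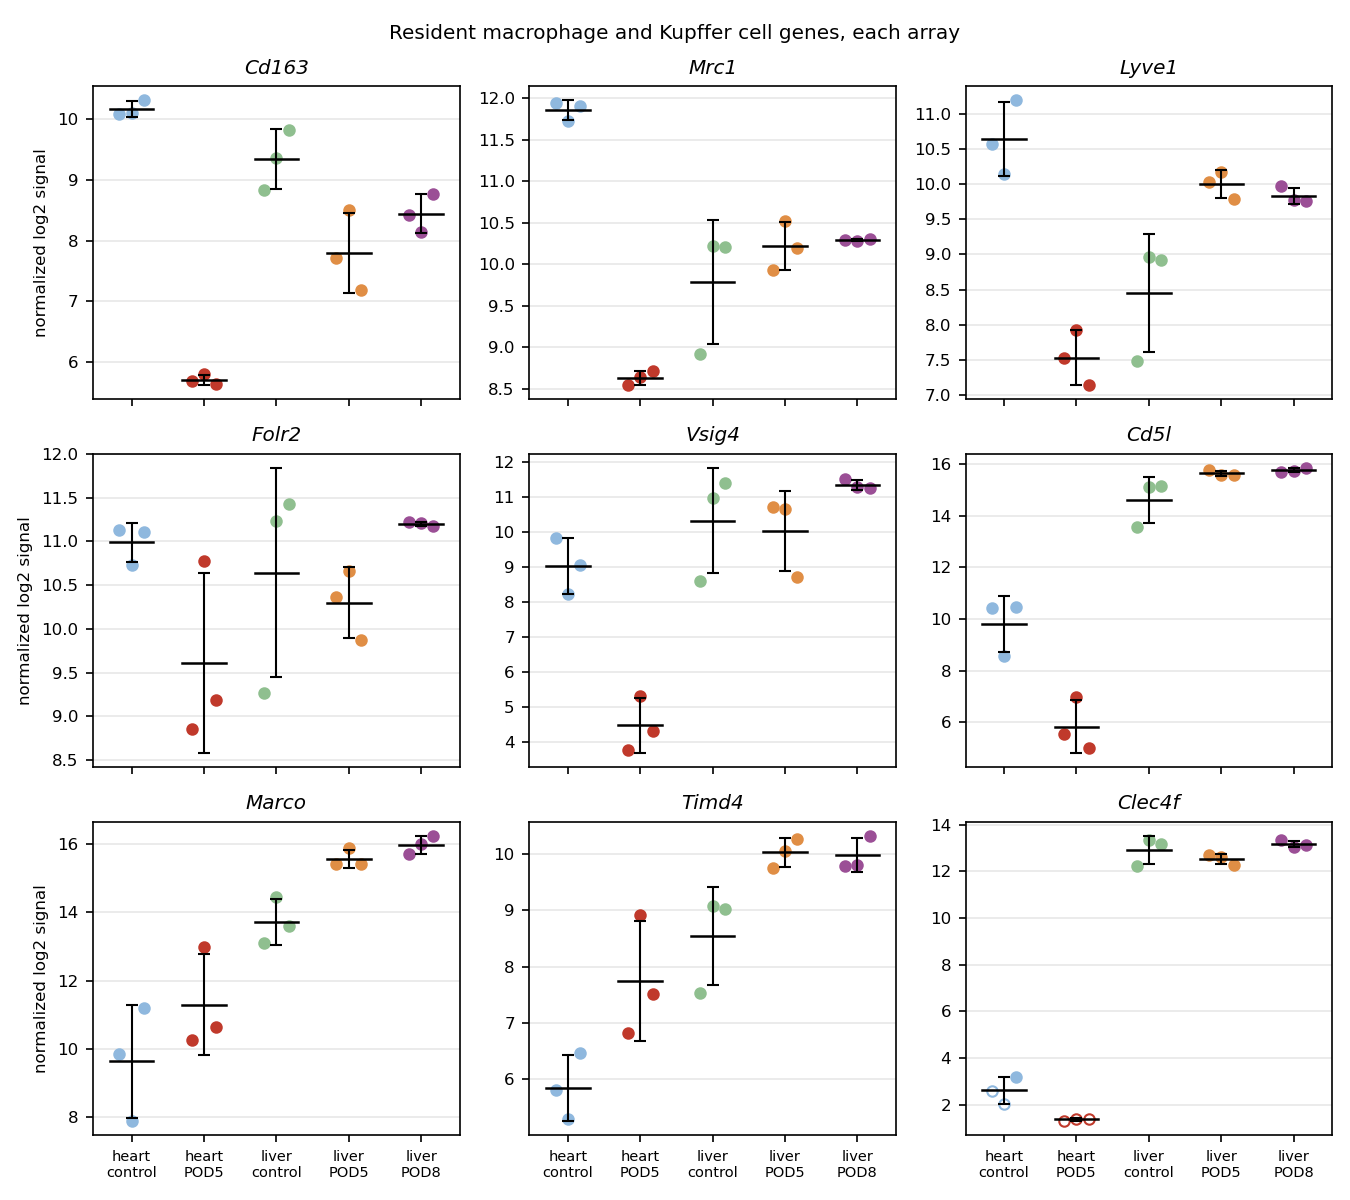
Normalized log2 signal of each gene (y axis, own scale in each panel) on each of the 15 arrays by group (x axis). Points are arrays in replicate order, open where the probe was not well above background; the wide bar is the group mean and the whiskers 1 SD (n = 3). Cd163 and Mrc1 lay far below their heart controls in the 3 heart allografts, at means of 5.70 and 8.63, and Clec4f was at a high level only in the liver groups.

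In the heart allografts at POD5, 5 of the 9 genes were at far lower levels than in the controls: Vsig4 23.7-fold, Cd163 22.1-fold, Cd5l 15.9-fold, Mrc1 9.37-fold and Lyve1 8.64-fold. Timd4 lay 3.73-fold higher, and Marco and Folr2 overlapped between the groups. Because Cd163 was chosen for this very comparison, these values are a description with no test. For reference, limma called 32% of all probes in this comparison, 16.4% lower and 15.6% higher, and the groups did not overlap for 54.6% of all probes, with the allografts below for 25.5% and above for 29.1%. Of the 9 genes 6 lay wholly below the controls, with Clec4f near background among them, and 1 lay wholly above, counts that the choice of the genes could have set and from which nothing is read.

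Cd163, the haemoglobin scavenger receptor, gave 10.09, 10.10 and 10.31 on the heart control arrays and 5.68, 5.80 and 5.63 on the allograft arrays. Each group was tight and the gap between them, -4.47 ± 0.11 (SE), was wider than the whole range within either group. The 3 allograft arrays were still well above background for Cd163, so the receptor's RNA was low but measured.

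Mrc1, the mannose receptor CD206, gave 11.94, 11.73 and 11.91 in the controls and 8.54, 8.64 and 8.71 in the allografts. The difference of -3.23 ± 0.10 (SE) was as even across arrays as that of Cd163. Lyve1, a hyaluronan receptor, gave 10.57, 10.15 and 11.20 in the controls and 7.53, 7.92 and 7.14 in the allografts. The difference was -3.11 ± 0.34 (SE), and the dimmer probe of Lyve1 lay lower too, by -2.22 ± 0.28 (SE). No array of the allografts reached a control for Mrc1 or for either Lyve1 probe.

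Vsig4 gave 9.83, 8.24 and 9.07 in the controls and 3.78, 5.33 and 4.32 in the allografts, a difference of -4.57 ± 0.56 (SE). Cd5l gave 10.41, 8.56 and 10.48 in the controls and 5.53, 6.96 and 4.98 in the allografts, a difference of -3.99 ± 0.75 (SE). Both spread by more than a log2 unit within each group, with control array 2 the lowest control and allograft array 2 the highest allograft, and both stayed apart between the groups. Without allograft array 2 the difference was -4.99 for Vsig4 and -4.56 for Cd5l. The summed signal of 6 hepatocyte genes was 4965, 643 and 6563 on heart control arrays 1, 2 and 3 and 323 to 525 in the allografts, with 2 to 3 of the 6 above background in either group, so it was lowest on the control array where Cd5l was lowest. On that array Cd5l was 8.56, against 5.53, 6.96 and 4.98 in the allografts. Control array 2 held the lowest control value for 8 of 9 genes. The difference of Cd5l was -4.62 without control array 2, which keeps the control arrays with the higher hepatocyte signal. It was -3.70 without control array 1 and -3.66 without control array 3, and no setting left out both of these. The part of this hepatocyte signal in the values was not tested.

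Folr2 gave 11.14, 10.73 and 11.11 in the controls and 8.86, 10.78 and 9.18 in the allografts. Allograft array 2 sat among the controls while the other allograft arrays were well below, and the difference was -1.38 ± 0.53 (SE) with that array and -1.97 without it. Clec4f was near background in all 6 heart arrays and no fold is given for it.

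Timd4 and Marco, phagocytic receptors and, like the others, genes of resident macrophages, lay on the other side. Timd4 gave 5.80, 5.28 and 6.46 in the heart controls and 6.82, 8.91 and 7.51 in the allografts, so each allograft lay above each control, with a difference of 1.90 ± 0.61 (SE) that was 1.32 without allograft array 2. Marco gave 9.84, 7.89 and 11.19 in the controls and 10.25, 13.001 and 10.66 in the allografts. These ranges overlapped, the difference of 1.66 ± 1.11 (SE) fell to 0.81 without allograft array 2 and to 0.79 without control array 2, and its 95% interval ran from -1.15 to 4.47.

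The heart allografts were hybridised on a slide that also carried liver POD5 array 3, and the heart controls on another slide scanned on a different day. The effect of the slide and that of grafting therefore cannot be told apart here. With 75th percentile scaling, an alternative to quantile normalization, the median difference of all probes went from 0.02 to 0.47, and relative to that median the difference of Cd163 was -4.82 and that of Timd4 1.59 (-4.36 and 2.06 before it was subtracted). With normexp background correction in place of the scanner software's own, the differences of all 9 genes kept their signs, and these came closer to 0: Cd163 to -3.36, Vsig4 to -2.76, Cd5l to -2.92 and Timd4 to 1.18.

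**Figure D2:**
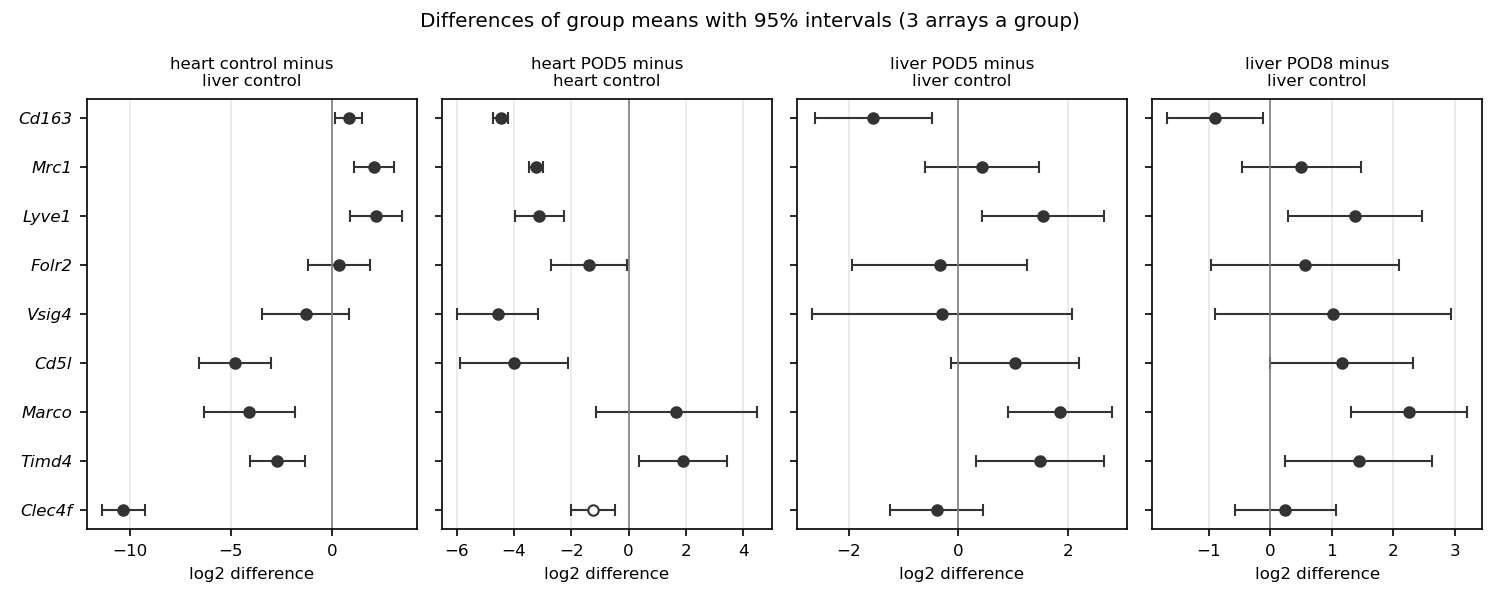
Differences of group means on the log2 scale (x axis, own scale in each panel) for the 9 genes (y axis), with 95% intervals from limma, 3 arrays in each group; the open point marks Clec4f in the heart, where it was near background. In the heart allografts, Cd163, Mrc1, Lyve1, Vsig4 and Cd5l lie between -4.57 and -3.11. The heart allograft intervals show the spread between arrays and are no test, because the fall of Cd163 there chose the set. In the liver only Cd163 has an interval wholly below 0, and it was not called after adjustment.

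Other genes of the same kinds of macrophage, from lists that were drawn up with earlier results of these data known, were read from the same heart comparison by limma with Benjamini-Hochberg adjustment. The choice of the lists could have set such counts. For each list the share to hold beside it is 16.4% of all probes called lower and 15.6% called higher. Of 12 further genes of cardiac and other resident macrophages, 9 were called lower and 0 higher, with a median difference of -1.13 against 0.02 over all probes. Cbr2, a carbonyl reductase, fell by 4.43 on the log2 scale (adjusted p = 0.00144), F13a1, the coagulation factor XIII subunit A, by 3.58 (adjusted p = 0.000468), the platelet factor Pf4 by 3.56 (adjusted p = 0.00575) and the growth factor Igf1 by 2.34 (adjusted p = 0.0196). Each of these was well above background on all 6 heart arrays.

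Genes that macrophages of all kinds carry gave no lower calls, but 10 of them were not called in either direction. Their differences ran from -1.27 to 2.08, and 1 gene lay wholly below the controls. Of 14 such genes 4 were called higher and 0 lower, with a median of 0.36: Aif1 rose by 2.08, the high-affinity Fc receptor Fcgr1 by 1.44, and the complement genes C1qa and C1qc by 0.75 and 0.66 (limma, adjusted p = 0.00197, 0.00738, 0.0305 and 0.0367). The summed signal of the 14 genes was 169500 to 221600 in the allografts and 91760 to 134800 in the controls, and all 14 were above background on each of these 6 arrays. The 12 genes of recruited monocytes and activated macrophages gave 7 higher and 1 lower calls with a median of 1.95, the cytokine gene Tnf rising by 4.47 and the monocyte genes Plac8 and Ms4a4c by 2.94 and 2.77 (limma, adjusted p = 0.00182, 0.00555 and 0.00253). Nos2, the inducible nitric oxide synthase, was not well above background in the controls and reached at least 7.003 times the control level in the allografts (limma, adjusted p = 0.000504), the bound being taken against the lowest signal well above background on each control array. The lower call was Spp1, osteopontin, which fell by 2.23 (limma, adjusted p = 0.0019).

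The 12 other Kupffer cell genes were split in the heart, with 2 called higher, 4 lower and a median of 0.10. Hpgd, which degrades prostaglandins, fell by 3.53, the iron exporter Slc40a1 by 2.66, the platelet-binding lectin Clec1b by 2.27 and the ficolin Fcna by 1.78, while Il18bp, which binds interleukin 18, rose by 4.03 (limma, adjusted p = 0.00301, 0.00137, 0.00186, 0.0352 and 0.000185). Among 15 growth and transcription factors of macrophages 7 were called higher and 2 lower: the interferon regulatory factor Irf8 rose by 3.83, PU.1 itself, encoded by Spi1, by 1.58 and the growth factor Csf1 by 0.86, whereas Maf and Zeb2 fell by 1.12 and 0.96 (limma, adjusted p = 0.000675, 0.0253, 0.0237, 0.0072 and 0.0163).

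Partners of the genes described moved in both directions in the heart. In the haemoglobin and haem group, the ligand side of Cd163, 2 of 8 genes were called higher and 1 lower: Blvrb, a biliverdin reductase, rose by 1.30 and the ferritin chain Fth1 by 0.36, while Slc40a1 was the lower call (limma, adjusted p = 0.0354, 0.0463 and 0.00137). Among 10 genes for the uptake of dying cells, the setting in which Timd4 acts, 1 was called higher and 4 lower: the scavenger receptor Stab2 rose by 1.07, while the bridging proteins Gas6 and Pros1 fell by 1.15 and 0.86 and Stab1 and Dock1 fell by 1.01 and 0.90 (limma, adjusted p = 0.0275, 0.00661, 0.00443, 0.00931 and 0.0229). Of 20 other scavenger receptors and relatives of these genes 4 were called higher and 7 lower: the scavenger receptor Msr1, which shares the collagen-like build of Marco, rose by 1.84 and Cd5 and Cd6, lymphocyte receptors with the cysteine-rich domains found in Cd163 and Cd5l, rose by 4.996 and 4.99, while Scara5 fell by 3.77 and Cd36 by 2.31 (limma, adjusted p = 0.00575, 0.00061, 0.000871, 0.00152 and 0.00198).

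Genes of other cells moved in the same arrays, and their part in the values above was not tested. Of 6 genes of lymphatic endothelium, which also carries Lyve1, 5 were called lower, with Reln falling by 3.22 and Mmrn1 by 3.02 (limma, adjusted p = 0.000647 and 0.001), and their summed signal was 2337 to 6036 in the allografts and 8254 to 10360 in the controls. Of 10 genes of sinusoidal endothelium 3 were called higher and 4 lower by limma. T cell genes were called higher for 7 of 7, and their summed signal was 10040 to 15350 against 412 to 615, while calls higher and lower were 3 and 2 of 6 for dendritic cells, 1 and 2 of 6 for neutrophils, 0 and 0 of 6 for B cells (limma), 0 and 3 of 8 for cardiomyocytes and 1 and 2 of 6 for hepatocytes.

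**Figure D3:**
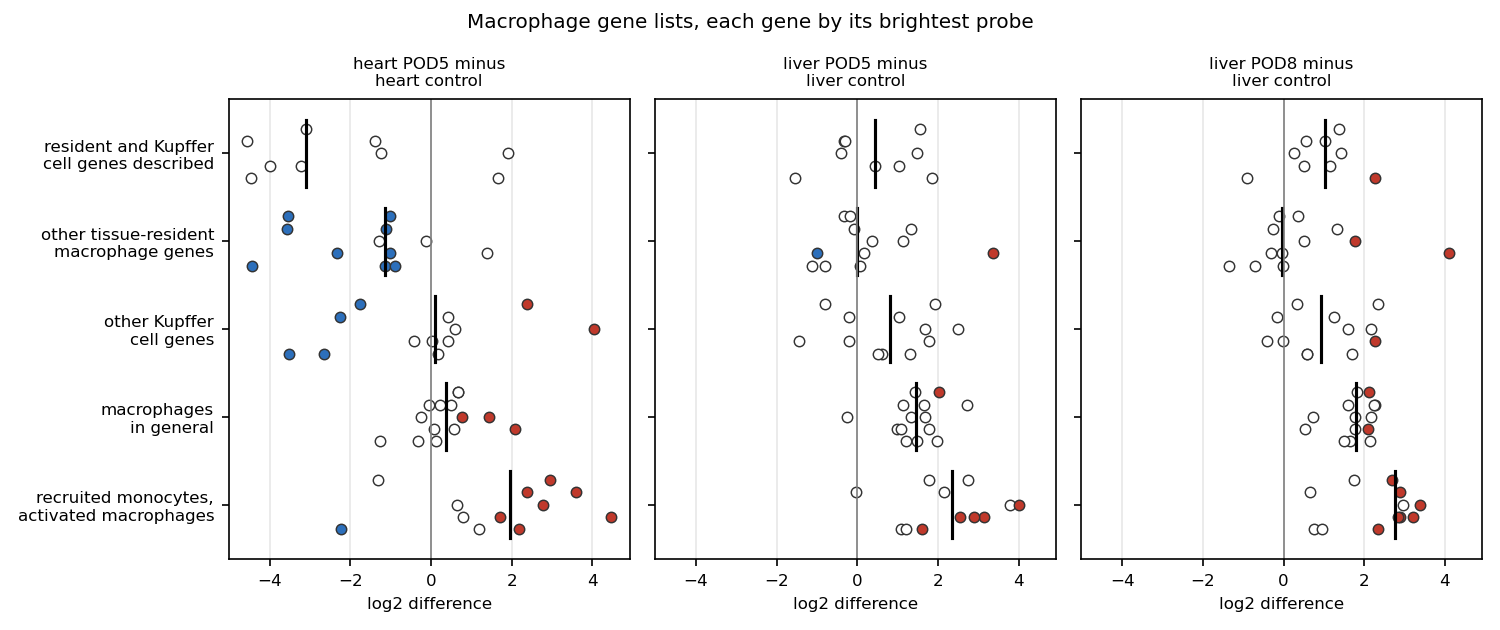
Log2 difference (x axis) of each gene of 5 lists of macrophage genes (y axis) in the heart at POD5 and the liver at POD5 and POD8, each against its controls; the black bar is the median of the list. Red marks genes called higher and blue genes called lower by limma, open points were not called, and the 9 genes described carry no fill in the heart, where they were not tested. In the heart the 12 further resident macrophage genes lie around a median of -1.13 and the monocyte genes around 1.95.

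In the liver allografts at POD5 the direction was up for Marco, Lyve1, Timd4, Cd5l and Mrc1. Marco was at 3.62-fold and Lyve1 at 2.92-fold of the controls. The direction was down for Cd163, at a level 2.93-fold below the controls, and for Clec4f, Folr2 and Vsig4. Mrc1 overlapped with the controls at a log2 difference of 0.43, as did Clec4f, Folr2 and Vsig4 at -0.40, -0.34 and -0.30. None of the 9 passed limma with Benjamini-Hochberg adjustment at POD5, where 3.16% of all probes did (2.38% higher, 0.778% lower), and 4 of the 9 had an unadjusted p under 0.05 against 20.6% of all probes. At POD8 1 of 9, Marco, was called higher and 0 lower, where 4.97% of all probes were called (3.53% higher, 1.44% lower). The arrays did not overlap for 5 of 9 genes at POD5, 4 higher and 1 lower, against 31.2% of all probes, 12.4% higher and 18.8% lower. At POD8 they did not overlap for 6 of 9, 5 higher and 1 lower, against 31.4% of all probes, 12.9% higher and 18.6% lower. With control array 1 left out, 0 of 9 genes were called at POD5 and 3 of 9, all higher, at POD8 by limma, against 2.5% and 6.46% of all probes. The 3 control arrays serve both time points, so the comparisons are not independent of each other.

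Marco gave 13.12, 14.45 and 13.60 in the liver controls, 15.42, 15.88 and 15.43 at POD5 and 15.70, 16.00 and 16.24 at POD8. Every allograft array lay above every control array at both times, and no spot on any array was marked saturated. The difference was 1.86 ± 0.38 (SE; limma, adjusted p = 0.0696) at POD5 and 2.26 ± 0.37 (SE; limma, adjusted p = 0.0384) at POD8. The POD8 call did not hold without POD8 array 1, 2 or 3 (limma, adjusted p = 0.134, 0.157 and 0.123) or without control array 3 (adjusted p = 0.0749), nor in a fit that took its spread from all 5 groups (adjusted p = 0.091), and on the slide that carried 2 POD8 and 2 control arrays, which is also the fit with slide as a fixed block, the difference was 2.07 (adjusted p = 0.189). Without control array 1 Marco was at 1.95 at POD8 (limma, adjusted p = 0.047) and at 1.55 at POD5 (limma, adjusted p = 0.106).

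Timd4 gave 7.53, 9.07 and 9.02 in the controls, 9.76, 10.06 and 10.27 at POD5 and 9.80, 9.81 and 10.32 at POD8. Its allograft arrays lay above its controls at both times, as they did in the heart, but the differences of 1.49 ± 0.46 and 1.44 ± 0.47 (SE) were not called (limma, adjusted p = 0.167 and 0.161). Without control array 1 they were 0.98 and 0.93 (limma, adjusted p = 0.0971 and 0.0827).

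Lyve1 gave 7.49, 8.96 and 8.92 in the controls, 10.04, 10.18 and 9.79 at POD5 and 9.97, 9.78 and 9.77 at POD8. The allograft arrays again lay above all controls, by 1.55 ± 0.44 and 1.38 ± 0.43 (SE; limma, adjusted p = 0.141 and 0.148), and the dimmer probe differed by 1.63 and 1.78 (limma, adjusted p = 0.23 and 0.177). Without control array 1 the difference of Lyve1 was 1.06 at POD5 (limma, adjusted p = 0.0671) and 0.90 at POD8, where it was then called (limma, adjusted p = 0.028).

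Cd5l gave 13.57, 15.10 and 15.16 in the controls, 15.77, 15.59 and 15.59 at POD5 and 15.72, 15.74 and 15.86 at POD8. The allografts agreed closely with each other and control array 1 stood apart from the other controls. The differences of 1.03 ± 0.46 and 1.16 ± 0.46 (SE) were not called (limma, adjusted p = 0.286 and 0.227). Leaving out control array 1 made them smaller, 0.51 and 0.64, and the POD8 difference was then called (limma, adjusted p = 0.149 and 0.0428).

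Cd163 was the gene whose liver grafts lay below all their controls. It gave 8.84, 9.36 and 9.83 in the controls, 7.70, 8.498 and 7.18 at POD5 and 8.42, 8.14 and 8.77 at POD8. The differences of -1.55 ± 0.43 and -0.90 ± 0.31 (SE) were not called (limma, adjusted p = 0.129 and 0.175), and POD5 array 3, scanned on another day and on the slide of the heart allografts, was the lowest of all. Without that array, which is also the fit with scan day as a block, the POD5 difference was -1.24 (limma, adjusted p = 0.242), and without control array 1 the differences were -1.80 and -1.15 (limma, adjusted p = 0.14 and 0.0861). In a fit that took its spread from all 5 groups the POD5 difference of Cd163 was called (limma, adjusted p = 0.00643), as was that of Lyve1 (adjusted p = 0.0174), and at POD8 that fit called Lyve1 (adjusted p = 0.0336) and no longer Marco.

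The remaining 4 genes overlapped between liver grafts and controls at POD5. Mrc1 gave 8.92, 10.22 and 10.21 in the controls, 9.94, 10.52 and 10.20 at POD5 and 10.29, 10.28 and 10.31 at POD8, with differences of 0.43 and 0.51 (limma, adjusted p = 0.595 and 0.489). Apart from control array 1 the Mrc1 arrays of the liver were close together, and without it the differences were 0.00 and 0.08.

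Vsig4 gave 8.62, 10.98 and 11.41 in the controls, 10.73, 10.66 and 8.73 at POD5 and 11.51, 11.29 and 11.26 at POD8. Control array 1 and POD5 array 3, the latter on the slide of the heart allografts, both stood well below the other arrays of their groups. The differences were -0.30 and 1.02 with 95% intervals of -2.67 to 2.08 and -0.90 to 2.94. The sign of Vsig4 at POD5 depended on those arrays: it was -1.16 without control array 1 and 0.36 without POD5 array 3.

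Folr2 gave 9.27, 11.23 and 11.43 in the controls, 10.37, 10.67 and 9.87 at POD5 and 11.22, 11.21 and 11.18 at POD8, with differences of -0.34 and 0.56 that became -1.03 and -0.13 without control array 1. Clec4f gave 12.23, 13.34 and 13.19 in the controls, 12.70, 12.60 and 12.27 at POD5 and 13.34, 13.04 and 13.13 at POD8. The differences of the Kupffer cell lectin were -0.40 (95% interval -1.24 to 0.45) at POD5 and 0.25 (95% interval -0.57 to 1.06) at POD8, and -0.74 and -0.095 without control array 1.

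**Figure D4:**
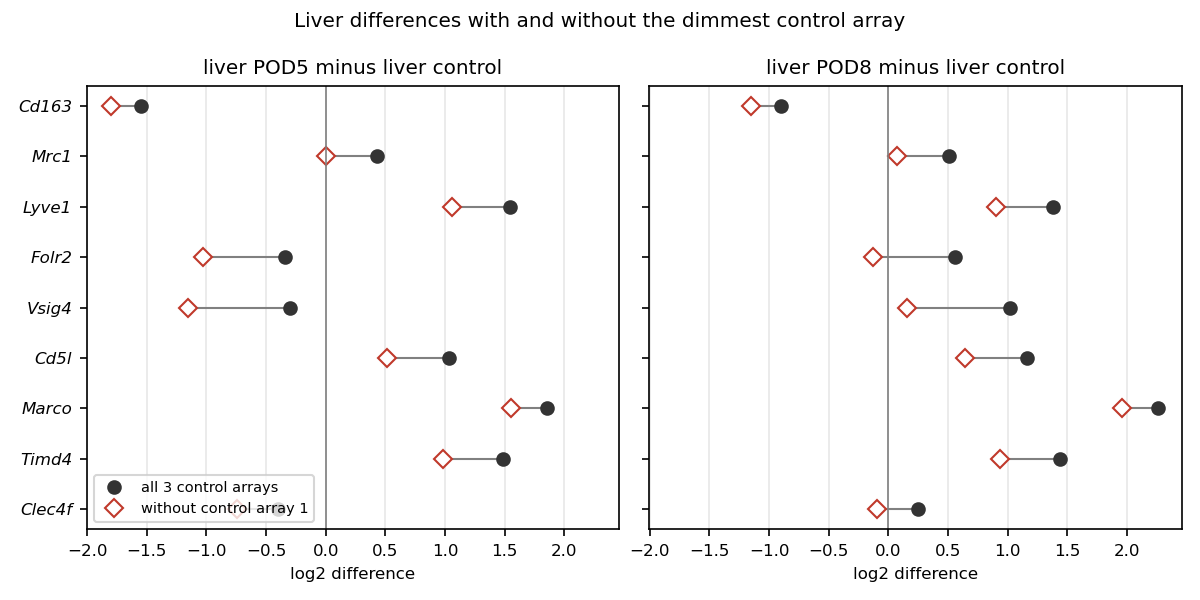
Log2 difference (x axis) of the 9 genes (y axis) in the liver at POD5 and POD8 against liver controls, with all 3 control arrays (filled) and without control array 1, the dimmest array (open diamonds). Each difference moved to the left without that array; Marco went from 2.26 to 1.95 at POD8 and Mrc1 from 0.51 to 0.08.

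Between the liver time points none of the 9 genes was called by limma with Benjamini-Hochberg adjustment, and neither was any other probe (0% of 41165), while 2 of 9 genes and 12.9% of all probes had an unadjusted p under 0.05 by limma. Folr2 was higher at POD8 than at POD5 by 0.90 ± 0.21 and Clec4f by 0.64 ± 0.16 (SE; limma, adjusted p = 0.26 and 0.261), with no overlap of the arrays, and Vsig4 was higher by 1.32 ± 0.57 (SE; limma, adjusted p = 0.419), also with no overlap. These 3 were the genes whose arrays did not overlap, all higher at POD8, against 19.7% of all probes, 9.29% higher and 10.4% lower. The 95% intervals of the other genes included 0, from Lyve1 at -0.16 to Cd163 at 0.65.

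In the liver the wider lists were read by limma in the same way, where 3.16% of all probes were called at POD5 and 4.97% at POD8. The 12 other resident macrophage genes gave 1 higher and 1 lower call at POD5 and 2 higher and 0 lower at POD8, with medians of -0.01 and -0.03 against -0.07 and -0.08 over all probes. The higher calls at POD8 were the chemokine Ccl24, which rose by 4.10, and the lectin Clec10a, which rose by 1.77 (limma, adjusted p = 0.0125 and 0.0244). The 12 other Kupffer cell genes gave 0 calls at POD5 and 1 at POD8, where Spic, the transcription factor of iron-recycling macrophages, rose by 2.26 (limma, adjusted p = 0.0247), and the medians were 0.82 and 0.92.

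General macrophage genes gave 1 higher call of 14 at POD5, Laptm5, and 2 at POD8, Laptm5 and Aif1, which rose by 2.13 and 2.09 (limma, adjusted p = 0.0125 and 0.0316), with medians of 1.46 and 1.79. Leaving out control array 1 made the counts at POD8 10 of 14 for general macrophage genes and 6 of 12 for other Kupffer cell genes, with medians of 1.09 and 0.65. At POD5 that setting gave 4 higher calls of 14 for general macrophage genes, 2 higher and 1 lower of 12 for other Kupffer cell genes, and 1 higher and 0 lower of 12 for resident macrophage genes. The summed signal of the 14 general genes was 67790 to 74450 at POD5, 88490 to 95950 at POD8 and 14000 to 39610 in the controls. Monocyte and activation genes gave 5 higher calls of 12 at POD5 and 7 at POD8, led at POD8 by Ms4a4c at 3.38, Tnf at 3.22, the chemokine receptor Ccr2 at 2.90 and the Fc receptor Fcgr4 at 2.88 (limma, adjusted p = 0.0101, 0.0255, 0.0181 and 0.0408).

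Endothelial and other cells were read beside these values, and their part in them was not tested. Of 10 genes of liver sinusoidal endothelium, which also carries Lyve1 and Mrc1, 0 were called by limma at either time, and of 6 lymphatic genes 1, Reln, was called lower at both (limma, adjusted p = 0.00854 and 0.0143). T cell genes were called higher for 5 of 7 at both times, with a summed signal of 6857 to 11440 at POD5 and 6084 to 7640 at POD8 against 363 to 485 in the controls. Of the 8 haem genes and the 10 genes for uptake of dying cells 0 were called at either time. Without control array 1, Hmox1, the haem oxygenase that degrades haem, was called higher at POD8 by 1.02 and Axl, a receptor for dying cells, by 1.21 (limma, adjusted p = 0.0232 and 0.0123).

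Over all 15 arrays, the named genes whose log2 signal followed that of Cd163 most closely, among 21882 probes above background in at least 1 group, were Klf9 (Pearson r = 0.952), Tmem64 (0.945), Clca3a1 (0.941), Pamr1 (0.937) and Prkra (0.937). Those closest to Clec4f were Pzp and Bbox1 (0.999 each), Itih3 (0.999), Aadac (0.999) and Stra6l (0.998), genes that like Clec4f were high in the liver and near background or low in the heart, with Pzp at 15.61 in liver controls and 2.76 in heart controls. Within the 9 genes, Cd163 followed Mrc1 (r = 0.837) and Vsig4 (0.706), Mrc1 followed Lyve1 (0.904), Timd4 followed Marco (0.964), and Cd163 and Timd4 were at -0.245. These correlations are descriptions over 15 arrays that share 5 groups and 2 organs, and carry no test.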

How the data were processed

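Total RNA labelled with a single dye was hybridised to 15 Agilent whole-genome mouse arrays and read by the authors with Agilent Feature Extraction 10.5.1.1, per the file headers. The deposited values are processed signal intensity (linear scale, background corrected by that software), with no gene names. Probes were named through their accession and RefSeq (GRCm38.p6 tables); 26690 of 41174 probes (64.8%) matched. Controls and spots marked as outliers (47 to 113 an array) were left out, the intensity was put on the log2 scale (the methods use the natural log, which differs by a constant factor), spots of a probe were averaged, and all 15 arrays were quantile normalized together. A probe counts as well above background where at least 0.5 of its spots carry that mark.

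Each comparison was fitted on its 6 arrays with limma 3.58.1 in R 4.3.3 (lmFit, eBayes) at probe level, with Benjamini-Hochberg adjustment over all probes tested and a threshold of 0.05; tests are two-sided and intervals are 95% limma intervals. The scripts were tested on simulated data. Depth has no meaning for arrays; their number, 3 a group, limits the precision, and an exact permutation test of 3 against 3 cannot go below p = 0.10. The members and all gene lists were chosen with earlier results of these data known. The genes named are the 9, their 5 closest genes for Cd163 and Clec4f, and from each list up to 4 called genes with the largest differences plus partners of the 9. Alternatives covered background correction, scaling, filters, fits, blocks and left-out arrays.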

Additional observations from a re-analysis of the deposited data

Results flagged for a closer look

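Genes were picked out where every heart allograft array lay on 1 side of its controls and every liver graft array on the other. This difference between organs was not tested, because the heart values chose the genes. Heart and liver grafts also differed in donor and recipient strains and in the kind of grafting, so organ cannot be told apart from these. In the heart, slide cannot be told apart from grafting either. Lyve1 was at -3.11 (log2 difference) in the heart and at 1.55 and 1.38 in the liver at POD5 and POD8. Cd5l was at -3.99 in the heart and at 1.03 and 1.16 in the liver at POD5 and POD8. Mrc1 was at -3.23 in the heart and at 0.51 in the liver at POD8. None of these liver differences was called in the main limma fits, which used all 3 control arrays. A fit that took its spread from all 5 groups called Lyve1 at both times, at POD5 with an adjusted p of 0.0174 by limma. Without liver control array 1 the difference of Mrc1 at POD8 was 0.08. At that setting Lyve1 and Cd5l were called higher at POD8 by limma (adjusted p = 0.028 and 0.0428).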

How the results depend on the processing

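Results of the 9 genes and of the 150 list genes outside them were recomputed under each alternative; the list counts, and the list genes without liver control array 1, were added after seeing the data. Of 666 recomputed differences of single genes in the comparisons with a test, 616 kept their direction and their side of the threshold, 18 changed sign, and 16 lost and 16 gained a call. Of 143 recomputed heart differences, which carry no test, 134 moved by less than 1 SD and 9 by more.

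In the heart at POD5 limma called 32% of all probes, 16.4% lower and 15.6% higher. Of the 9 genes it called 6, with Clec4f, which was near background, among them. The choice of the genes could have set this count, so it is no test of them and nothing is read from it. Bonferroni adjustment gave 2, the methods' t-test with Bonferroni 1, and the study's own SFC statistic with Bonferroni 2. The list count of 80 became 3, 1 and 12 in these settings. Leaving out 1 array gave 4 to 6 genes and 52 to 93 list genes. In the liver at POD5, 0 of 9 became 1 with normexp background correction or with dim probes left out, and 2 in a fit of all 5 groups; the list count of 22 became 34 and 54 in the latter settings, 1, 0 and 13 under Bonferroni, t-test Bonferroni and SFC, 8 with the t-test and Benjamini-Hochberg, 10 with scan day as a block, and 2 to 26 with 1 array left out. In the liver at POD8, 1 of 9 became 3 with 75th percentile scaling, 0 under Bonferroni, both t-test settings and slide as a fixed block, and 0 to 3 with 1 array left out, the 3 being without control array 1. The list count of 29 became 65 with that scaling, 58 in a fit of all groups, 2, 2 and 16 under Bonferroni, t-test Bonferroni and SFC, 13 with the t-test and Benjamini-Hochberg, 0 with slide as a block and 9 to 46 with 1 array left out. Between POD8 and POD5 SFC called 1 list gene against 0. Between control organs 6 of 9 became 1, 0 and 1 and the list count of 112 became 15, 6 and 16 under Bonferroni, t-test Bonferroni and SFC, with 5 to 7 and 94 to 116 when 1 array was left out.

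Replicate numbers do not pair the samples: correlations of same-numbered deviations ran from -0.352 to 0.203. With the replicate number as a block, the liver POD8 count fell from 1 to 0 and the list counts at POD5 and POD8 to 0 and 0.

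Signs that changed belong to differences that were called in neither setting. Not all of these were near 0 in the main setting: Folr2 was 0.56 at POD8 and 0.35 between control organs, and Mrc1 was 0.43 at POD5. At POD5 Mrc1 was -0.0083 by SFC, Folr2 0.052 without control array 3 (-1.03 to 0.052 over the arrays left out), and Vsig4 0.36 with scan day as a block, 0.36 without POD5 array 3, 0.03 without control array 2 and 0.24 without control array 3 (-1.16 to 0.36). At POD8 Clec4f was -0.058 with percentile scaling, -0.057 by SFC and -0.095 without control array 1 (-0.095 to 0.46), and Folr2 -0.020 by SFC and -0.13 without control array 1 (-0.13 to 0.95). Between POD8 and POD5 Timd4 was 0.069 with scan day as a block, 0.069 without POD5 array 3, 0.040 without POD8 array 1 and 0.032 without POD8 array 2 (-0.22 to 0.069), and Mrc1 was -0.067 without POD5 array 1 (-0.067 to 0.22). Between control organs Folr2 was -0.12 by SFC and -0.34 without liver control array 1 (-0.34 to 0.74). The causes were not tested.

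Scaling to the 75th percentile moved the median difference of all probes to 0.47 in the heart, -0.38 and -0.46 in the liver at POD5 and POD8, -0.14 between those times and -0.76 between control organs. Of the probes called, 48.7% were higher for the heart, 71.0% for liver POD8 and 52.9% for the control organs, and 74.2%, 18.4% and 30.9% with that scaling. With 3 arrays a group and a liver control array at 87.7 for its 75th percentile, dim genes are the least certain.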
